A study of Bos taurus with 27 samples.

Results

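Fatty acid oxidation and the peroxisome proliferator-activated receptor (PPAR) genes were examined in the rumen epithelium (RE) of Japanese Black beef cattle through the fattening period. The group held 44 genes, chosen by name for their roles in the pathway, out of 14952 gene names on the array. Earlier results of these data were known when they were chosen. Each of the 44 names was found on the array with 1 probe. The RE of the same 9 castrated and fistulated cattle was biopsied at the early, middle and late stages, at 14, 21 and 29 months of age, and all 27 biopsies were measured on 1-color bovine oligonucleotide arrays. The cattle were fed concentrate with forage at each stage, with a larger share of concentrate at the middle and late stages than at the early stage. The stages therefore differ in age, body weight and diet together, and no animals on a constant diet were among the arrays. Changes are given for the first period (middle minus early), the second period (late minus middle) and the total period (late minus early). The middle arrays enter both the first and the second period, so the values of these periods are not independent of each other.

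Long-chain fatty acids are joined to coenzyme A by acyl-CoA synthetases, pass into mitochondria as acylcarnitines, and are shortened in a repeated cycle of dehydrogenation, hydration, a further dehydrogenation and thiolysis. Electrons from the initial dehydrogenation reach the respiratory chain through the electron transfer flavoproteins. PPARs are nuclear receptors that bind fatty acids, pair with retinoid X receptors and raise transcription of many genes of this pathway. The RE takes up the volatile fatty acids of the rumen and oxidizes butyrate, which enters the same cycle, to ketone bodies and carbon dioxide.

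A level below is the log2 of the background-subtracted intensity minus the median log2 intensity of its array, and a change is a difference of such levels within the same probe. The brightness of different probes was not compared. A member is called differentially expressed (DEG) when its Benjamini-Hochberg adjusted *P* in limma, taken over all 15008 probes, was below 0.05. Scanner software called 35 of the 44 members well above background on all 27 arrays and 39 on all 9 arrays of at least 1 stage. *HSD17B10* was well above background on no array, *ACOX2* on 2 late arrays only, and *ACSL4* on 3 early, 0 middle and 1 late arrays, so no fold change is given for these 3 genes. The middle arrays were dimmer: their median signal was 8.05 to 28.1, against 34.5 to 47.5 at the early and 31.4 to 45.9 at the late stage. The median change of all probes was 0.32, −0.27 and 0.03 over the first, second and total periods, whereas it was 0.08, 0.10 and 0.14 over the 6797 probes that passed this flag on each array. Slides also followed the stages. Slide 1 held the early arrays of animals 1 to 8, slide 2 the early array of animal 9 and the middle arrays of animals 1 to 7, slide 3 the middle arrays of animals 8 and 9, and slides 4 and 5 the late arrays. Slide and stage cannot be told apart in the second and total periods by a fixed slide term.

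The probes that measured 6 of the members with the largest changes are shown because these results rest on single oligonucleotides of 60 bases. Positions are those of the array design on bosTau6 (UMD 3.1), and the strand is taken from the order in which the design lists start and end. The *ECHS1* probe lies at chr26:25862182-25862241 on the plus strand and the *CPT1A* probe at chr29:46824212-46824271 on the minus strand. The other 4 cross an intron, since they cover more genome than their own length: *ECH1* at chr18:48813492-48819175, *ETFA* at chr21:32038938-32042494 and *ETFDH* at chr17:41273430-41280181, all on the minus strand, and *ACAD8* at chr15:84870433-84872762 on the plus strand.
ECHS1: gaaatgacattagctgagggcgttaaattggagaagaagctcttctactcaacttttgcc
ECH1: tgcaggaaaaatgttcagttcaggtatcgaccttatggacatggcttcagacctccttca
ACAD8: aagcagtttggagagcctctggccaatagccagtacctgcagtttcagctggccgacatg
ETFA: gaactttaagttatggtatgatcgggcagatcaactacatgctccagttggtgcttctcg
ETFDH: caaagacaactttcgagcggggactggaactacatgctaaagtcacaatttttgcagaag
CPT1A: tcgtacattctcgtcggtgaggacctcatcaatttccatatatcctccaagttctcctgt

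In the first period some enzyme genes of mitochondrial fatty acid oxidation fell, among them *ECHS1* and *ECH1*. The valine breakdown gene *ACAD8* and the carnitine acetyltransferase gene *CRAT* fell as well. Other members, *ACADM*, *ACAD10* and *ECI2*, rose, as did the gene of the entry step, *CPT1A*, and the receptor genes *PPARD* and *PPARG*. Of the 44 members, 26 were DEGs, 14 higher and 12 lower. This is 59.1% of the members, and 66.5% of all probes were called in the same comparison, so the share of members called was not above that of the array. Higher calls made up 45.3% and lower calls 21.3% of all probes. At 2-fold or more, 4 members were higher, against 23.9% of all probes, and 6 were lower, against 7.58%. The higher calls include *HSD17B10* at both thresholds, although its probe was well above background on no array. The median change of the members was −0.01, beside 0.32 for all probes, and 27 members lay below the median of all probes and 17 above it. Among the 35 members well above background on all arrays the median change was −0.13, beside 0.08 for all such probes, and 10 were higher and 12 lower, where 34.9% and 26.9% of such probes were called. The split of calls depended on the scaling: it was 11 higher and 15 lower after quantile normalization, and 9 higher and 17 lower both after cyclic loess and after normexp background correction.

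In the second period most of these changes ran the other way. Of the members, 29 were DEGs, 20 higher and 9 lower, which is 65.9% of the members, beside 71.5% of all probes. Higher calls made up 27% and lower calls 44.6% of all probes. At 2-fold or more, 5 members were higher, against 9.99% of all probes, and 4 were lower, against 29%. The lower calls include *HSD17B10* and *ACSL4* at both thresholds, although neither was well above background on any middle array. Among the 35 brighter members 19 were higher and 5 lower, where 37.8% and 30.4% of such probes were called, and their median change was 0.50, beside 0.10. With 75th percentile scaling 17 members were higher and 16 lower. Over the total period 9 members were DEGs, 6 higher and 3 lower. This is 20.5% of the members, beside 20.1% of all probes, of which 11.2% were higher and 8.93% lower. At 2-fold or more 1 member was higher, against 1.32% of all probes, and 0 were lower, against 2.79%. The split of calls was 3 higher and 4 lower with 75th percentile scaling, 3 and 3 after quantile normalization, and 3 and 0 after normexp. When the slide was a random block, 0 members were called in the total period, beside 250 of the 15008 probes, and 4 members had an unadjusted *P* below 0.05. The early and middle arrays did not overlap for 6 members, beside 13% of all probes, the middle and late arrays for 10 members, beside 20.7%, and the early and late arrays for 0 members, beside 6.55%.

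**Figure D1:**
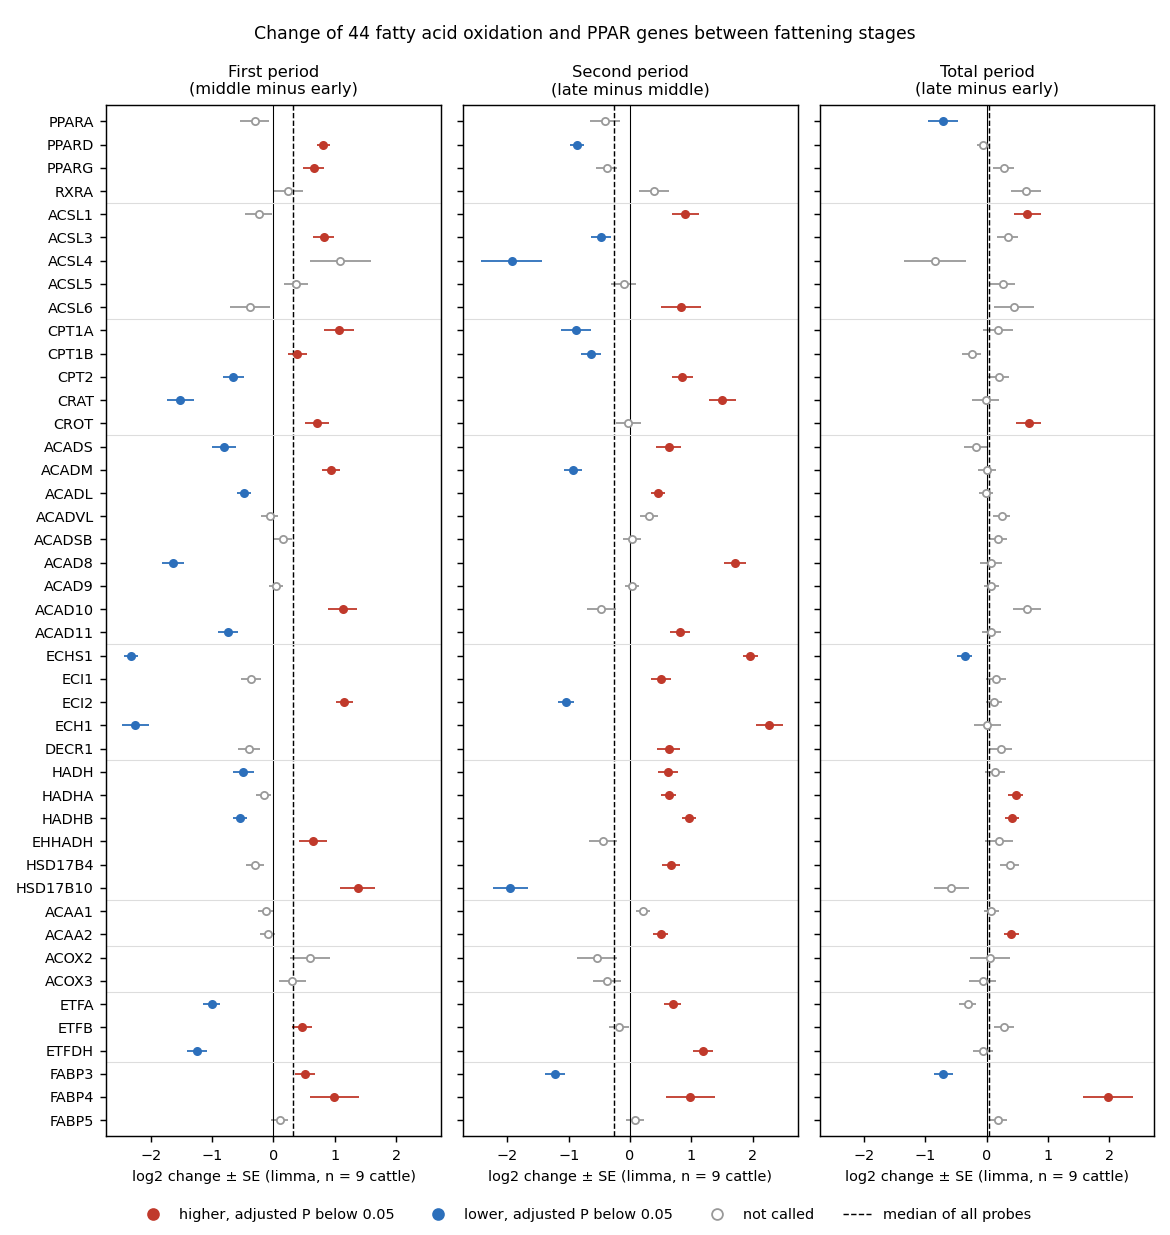
Log2 change of each of the 44 members (rows, grouped by role) in the 3 periods (panels), with the standard error from limma over 9 cattle. Red and blue points are members called higher and lower at an adjusted *P* below 0.05, open points were not called, and the dashed line is the median of all probes, at 0.32, −0.27 and 0.03. Red and blue change places between the first and second panels for most called members, and the points lie closest to 0 in the total period, where *FABP4* stands furthest out at 1.98.

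The receptor genes did not move as 1 group. *PPARD*, which encodes the receptor found in most tissues and known for roles in fatty acid use and in keratinocytes, had a mean early level of −1.18 ± 0.12 (SD, n = 9), a middle level of −0.37 ± 0.27 and a late level of −1.24 ± 0.19. It rose by 0.81 (SE 0.11, adjusted *P* = 5.92e-06 in limma) in all 9 cattle in the first period and fell by 0.87 (SE 0.11, adjusted *P* = 1.33e-06) in all 9 in the second. The middle arrays overlapped with neither of the other stages, and 8 of the 9 middle arrays were well above background for this probe. Over the alternatives its change ran from 0.22 to 0.99 in the first period and from −1.05 to −0.29 in the second. A fixed slide term ended the call of the rise. *PPARGC1A* (0.86 and −0.80) and *LEP* (0.91 and −0.74), well above background on no array, moved the same way. The part of low signal in the *PPARD* changes was not tested. *PPARG*, the receptor that drives fat cell formation and is also found in epithelia, was at 7.15 ± 0.44, 7.80 ± 0.45 and 7.42 ± 0.21. Its rise of 0.66 in the first period (SE 0.17, adjusted *P* = 0.00248, 8 of 9 cattle) became 0.01 after normexp, and its second period change of −0.38 was not called (adjusted *P* = 0.0520).

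*PPARA*, the receptor best known for inducing fatty acid oxidation in liver, fell from the early to the late stage in all 9 cattle, at −1.54 ± 0.31 against −0.83 ± 0.66. The change of −0.71 (SE 0.24) had an adjusted *P* of 0.0401, and this call was lost without the animal block, after normexp (−0.20) and quantile normalization (−0.64), under a random slide term (−0.58) and with animals 1, 2, 3, 7 or 8 left out (adjusted *P* from 0.0154 to 0.662 over its alternatives). *RXRA*, the shared partner of the PPARs, had a higher late than early level in all 9 cattle, but the change of 0.63 (SE 0.25) was not called (adjusted *P* = 0.0765). Its late arrays spread from 0.96 to 4.10.

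**Figure D2:**
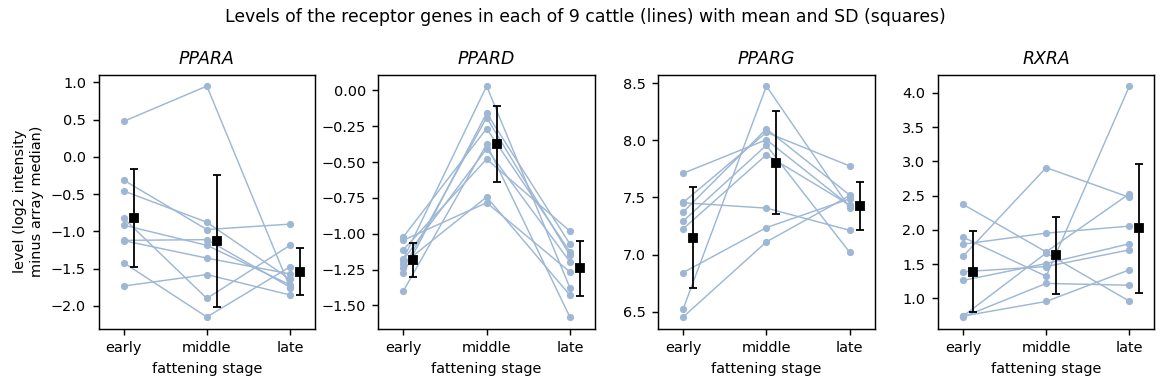
Level (log2 intensity minus the array median) of the 4 receptor genes at each stage, with 1 line per animal (9 cattle) and the mean with SD as black squares. *PPARD* peaks at the middle stage in every animal, from means of −1.18 and −1.24 on either side to −0.37. The *RXRA* value of 4.10 at the late stage and the *PPARA* value of 0.95 at the middle stage stand apart from the other animals.

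Of the 5 long-chain acyl-CoA synthetases, which activate fatty acids, 1 was called in the first period and 4 in the second. This is 20% and 80%, beside 66.5% and 71.5% of all probes, and the 4 include the dim *ACSL4*. *ACSL3*, a form linked to lipid droplets and the endoplasmic reticulum, rose by 0.82 (SE 0.17, adjusted *P* = 0.000317, 8 of 9 cattle) from 4.95 ± 0.58 to 5.77 ± 0.50, then fell by 0.48, a change that turned to a rise of 0.37 after normexp. *ACSL1*, the main form of oxidative and fat-storing tissues, rose by 0.90 in the second period in all 9 cattle (SE 0.22, adjusted *P* = 0.00120), from 0.57 ± 0.54 to 1.47 ± 0.54. In the total period its rise was 0.66 (adjusted *P* = 0.0400), and that call was lost after quantile normalization and under 75th percentile scaling. *ACSL6* rose by 0.83 from the middle to the late stage (adjusted *P* = 0.0264), where 4 of 9 middle arrays were well above background. That call was lost under 11 of 21 alternatives, with 0.04 (adjusted *P* = 0.675) after normexp. *ACSL5* was not called, with changes of 0.37, −0.11 and 0.26.

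The 5 genes of acylcarnitine transfer were all DEGs in the first period, where 66.5% of all probes were called, but in both directions. *CPT1A* encodes the outer membrane carnitine palmitoyltransferase, the main control point of long-chain fatty acid entry. Its level ran from 2.92 to 4.26 on the early arrays (median 3.74), from 3.48 to 5.73 on the middle ones (median 4.76) and from 2.96 to 4.47 on the late ones (median 3.89). The middle arrays were the highest but overlapped with both other stages, and every animal rose in the first period. The change was 1.07 (2.09-fold, SE 0.25, adjusted *P* = 0.000930) in the first period and −0.88 (SE 0.25, adjusted *P* = 0.00330, 8 of 9 cattle) in the next, but 0.43 (adjusted *P* = 0.165) and −0.11 (adjusted *P* = 0.702) after normexp. *CPT1B*, the muscle form of the same enzyme, changed by 0.39 (adjusted *P* = 0.0362) and −0.64 (adjusted *P* = 0.00144).

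*CPT2*, the inner membrane partner that returns the acyl group to coenzyme A, moved the opposite way. It fell by 0.66 (SE 0.17, adjusted *P* = 0.00263, 8 of 9 cattle) and rose by 0.85 in all 9 cattle (SE 0.17, adjusted *P* = 0.000228). *CRAT*, which moves acetyl groups between coenzyme A and carnitine, ran from 3.44 to 4.23 on the early arrays (median 3.86), from 0.87 to 3.45 on the middle ones (median 2.29) and from 3.31 to 4.10 on the late ones (median 3.95). Most middle arrays lay far below the others, and 1 of them reached the lowest early and late values. The change was −1.52 (2.87-fold lower, SE 0.22, adjusted *P* = 1.39e-05, 9 of 9 cattle) and then 1.51 (SE 0.22, adjusted *P* = 8.64e-06, 8 of 9 cattle). *CROT*, which prepares medium-chain acyl groups for leaving peroxisomes, rose by 0.71 in the first period (adjusted *P* = 0.00479) and kept that level, with −0.03 afterwards and 0.68 (adjusted *P* = 0.0221) from early to late, higher in 9 of 9 cattle.

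Of the 9 acyl-CoA dehydrogenases, which carry out the initial step of the cycle for acids of different length or branching, 2 rose and 4 fell in the first period. The share called, 66.7%, was near the 66.5% of all probes, of which 45.3% were higher and 21.3% lower. *ACAD8*, the isobutyryl-CoA dehydrogenase of valine breakdown, showed the largest fall of them. Its level ran from 3.20 to 4.23 on the early arrays (median 3.74), from 0.38 to 2.55 on the middle ones (median 2.18) and from 3.22 to 4.13 on the late ones (median 3.71). The middle arrays overlapped with neither other stage. It fell by 1.64 (3.11-fold, SE 0.18, adjusted *P* = 7.62e-07) and rose by 1.71 (SE 0.18, adjusted *P* = 1.86e-07), both in 9 of 9 cattle. *ACADS*, which acts on butyryl-CoA, fell by 0.81 (SE 0.20, adjusted *P* = 0.00178) and rose by 0.63 (adjusted *P* = 0.00876). *ACAD11*, a dehydrogenase of long-chain acids, fell by 0.74 (adjusted *P* = 0.000448) and rose by 0.81 (adjusted *P* = 0.000139), and *ACADL* fell by 0.47 and rose by 0.46.

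*ACADM*, the medium-chain dehydrogenase and a well-known PPAR target, rose instead, from 2.39 ± 0.22 to 3.33 ± 0.47, and returned to 2.40 ± 0.28. Its changes of 0.94 (SE 0.15, adjusted *P* = 2.47e-05) and −0.93 (SE 0.15, adjusted *P* = 1.61e-05) held in all 9 cattle, but were 0.34 (adjusted *P* = 0.0735) and −0.25 (adjusted *P* = 0.168) after normexp. *ACAD10*, whose transcript accession RefSeq lists as LOC511425, ran from 0.43 to 1.41 on the early arrays (median 0.82), from 1.20 to 3.69 on the middle ones (median 1.80) and from 0.94 to 2.43 on the late ones (median 1.50). Every animal was higher at the middle than at the early stage, although the arrays overlapped. It rose by 1.13 (2.18-fold, SE 0.23, adjusted *P* = 0.000358) and its later change of −0.47 was not called. *ACADVL*, *ACADSB* and *ACAD9* were called in none of the 3 comparisons, with changes between −0.06 and 0.31. In the total period *ACAD10*, at 0.66 (adjusted *P* = 0.0510), came closest to a call among the dehydrogenases.

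The hydratases and isomerases held the largest changes of the members. *ECHS1* encodes the mitochondrial short-chain enoyl-CoA hydratase, which adds water to the product of the initial dehydrogenation. Its level ran from 5.99 to 6.82 on the early arrays (median 6.34), from 3.75 to 4.53 on the middle ones (median 4.00) and from 5.78 to 6.22 on the late ones (median 5.95). The lowest early and late arrays lay well above the highest middle array. It fell by 2.32 (5.00-fold, SE 0.12, adjusted *P* = 1.58e-10) and rose by 1.96 (3.89-fold, SE 0.12, adjusted *P* = 2.48e-10), in 9 of 9 cattle each time. In the total period it fell by 0.36 (SE 0.12, adjusted *P* = 0.0397, 9 of 9 cattle), a call that was lost after normexp (adjusted *P* = 0.865) and with animals 1, 2, 3, 5 or 7 left out.

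*ECH1*, a dienoyl-CoA isomerase needed for some unsaturated fatty acids, ran from 3.88 to 4.58 on the early arrays (median 4.21), from 1.19 to 3.23 on the middle ones (median 1.78) and from 3.88 to 4.62 on the late ones (median 4.24). Its middle arrays again overlapped with neither other stage. The change was −2.25 (4.77-fold lower, SE 0.22, adjusted *P* = 2.02e-07) and then 2.26 (4.81-fold higher, SE 0.22, adjusted *P* = 6.54e-08), and 0.01 in the total period. *ECI2*, an enoyl-CoA isomerase of mitochondria and peroxisomes, moved the other way, from −0.11 to 0.46 at the early (median 0.11), 0.81 to 2.02 at the middle (median 1.31) and up to 0.81 at the late stage (median 0.16). It rose by 1.16 (2.23-fold, SE 0.13, adjusted *P* = 1.26e-06) and fell by 1.04 (2.06-fold, SE 0.13, adjusted *P* = 1.79e-06), with every animal up in the first period and the late array of 1 animal level with its middle array. *ECI1* and *DECR1*, the mitochondrial isomerase and dienoyl-CoA reductase, were not called in the first period, with −0.36 and −0.39, and rose by 0.51 and 0.63 in the second.

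**Figure D3:**
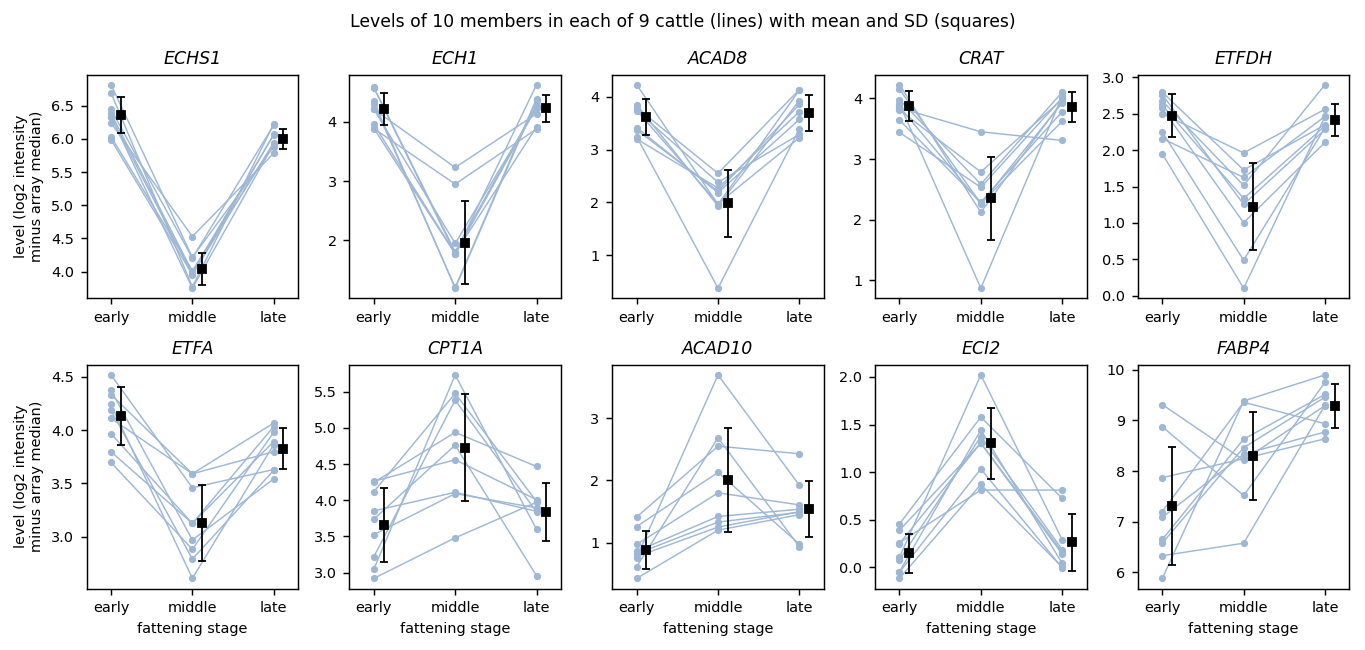
Level (log2 intensity minus the array median) at the early, middle and late stages for the 10 members called at 2-fold or more in a comparison and passing the background flag on all arrays of at least 2 stages, with 1 line per animal (9 cattle) and the mean with SD as black squares. *ECHS1*, *ECH1*, *ACAD8*, *CRAT*, *ETFDH* and *ETFA* dip at the middle stage, *CPT1A*, *ACAD10* and *ECI2* peak there, and *FABP4* climbs from a mean of 7.31 through 8.30 to 9.28.

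*HADHA* and *HADHB*, the subunits of the mitochondrial trifunctional protein, are neighbours on chromosome 11, with probes 72.8 kb apart on UMD 3.1 and 0 protein-coding genes between them in the RefSeq annotation of ARS-UCD2.0. *HADHA* changed by −0.16 (not called), 0.63 (SE 0.12, adjusted *P* = 0.000167) and 0.47 (adjusted *P* = 0.0106) in the first, second and total periods, and *HADHB* by −0.54 (SE 0.12, adjusted *P* = 0.000499), 0.96 (SE 0.12, adjusted *P* = 9.00e-07) and 0.42 (adjusted *P* = 0.0147). Late levels of the pair exceeded early levels in 9 and 8 of 9 cattle. *HADH*, the short-chain hydroxyacyl-CoA dehydrogenase, fell by 0.49 (adjusted *P* = 0.0146) and rose by 0.62 (adjusted *P* = 0.00262). *ACAA2*, the mitochondrial thiolase, rose by 0.50 in the second (adjusted *P* = 0.00136) and 0.40 in the total period (adjusted *P* = 0.0259, 9 of 9 cattle).

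*HSD17B4*, the peroxisomal multifunctional enzyme, rose by 0.67 in the second period (SE 0.15, adjusted *P* = 0.000567, 8 of 8 cattle, with 1 outlier spot missing). *EHHADH*, its PPAR-induced counterpart, was 0.64 higher at the middle than at the early stage (adjusted *P* = 0.0208), but 4 of 9 middle arrays were well above background and the change was −0.49 (adjusted *P* = 0.626) within slide 2. The peroxisomal thiolase gene *ACAA1*, with changes of −0.13, 0.21 and 0.08, and the oxidase gene *ACOX3*, with 0.31, −0.38 and −0.07, were not called.

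Genes that pass electrons from the acyl-CoA dehydrogenases to the respiratory chain split within the complex. *ETFDH*, the ubiquinone oxidoreductase, ran from 1.95 to 2.80 on the early arrays (median 2.57), from 0.10 to 1.96 on the middle ones (median 1.34) and from 2.11 to 2.90 on the late ones (median 2.35). It fell by 1.25 (2.38-fold, SE 0.16, adjusted *P* = 4.41e-06) and rose by 1.19 (2.29-fold, SE 0.16, adjusted *P* = 3.64e-06), each in 9 of 9 cattle. *ETFA*, a subunit of the flavoprotein, ran from 3.70 to 4.52 (median 4.18), from 2.61 to 3.59 (median 3.12) and from 3.54 to 4.07 (median 3.86) at the 3 stages. Its early and middle arrays did not overlap, and it fell by 1.01 (2.01-fold, SE 0.14, adjusted *P* = 8.17e-06) and rose by 0.70 (SE 0.14, adjusted *P* = 0.000188). *ETFB*, the partner subunit, was 0.46 higher in the first period (adjusted *P* = 0.0203, 7 of 9 cattle), a change that was −0.10 after normexp and was not called with scan day as a block.

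The fatty acid-binding proteins, which carry fatty acids within the cell, gave the only 2-fold call of the total period. *FABP4*, the form of fat cells and macrophages, ran from 5.88 to 9.31 on the early arrays (median 7.08), from 6.57 to 9.38 on the middle ones (median 8.33) and from 8.64 to 9.90 on the late ones (median 9.30). The late arrays were high and close together, while the early arrays spread widely and 2 of them reached the late range. The change was 0.99 (SE 0.40, adjusted *P* = 0.0362) over the first period, 0.98 (SE 0.40, adjusted *P* = 0.0358) over the second and 1.98 (3.94-fold, SE 0.40, adjusted *P* = 0.00184, 8 of 9 cattle) from early to late. The calls of the single periods were lost with some animals left out, 1, 5, 7, 8 or 9 for the first (0.68 to 1.29, adjusted *P* up to 0.130) and 1, 4, 6 or 8 for the second (0.76 to 1.16, adjusted *P* up to 0.121). The total change was 1.89 with the slide as a random block (adjusted *P* = 0.286). Of the 9 adipocyte markers, 5 were well above background on no early array, among them *ADIPOQ*, *PLIN1* and *LEP*, which were so on no array at all. *CIDEA*, *LPL* and *PNPLA2* were well above background on all early and late arrays. Changes of the 9 lay between −0.29 (*LIPE*) and 0.38 (*PNPLA2*) in the total period, with adjusted *P* of 0.152 or more, while *PNPLA2* rose by 0.64 and *CIDEA* by 2.73 in the second. *CD68*, a macrophage marker, changed by −0.38 (not called) and 0.78 (adjusted *P* = 0.00284), and by 0.40 from early to late (not called). It is 1 of 12 leukocyte markers, of which 3 were higher and 4 lower in the second period, beside 27% and 44.6% of all probes. In the total period 1 was higher and 3 lower, beside 11.2% and 8.93%. *CD14* and *CSF1R* were called in no comparison, and *CD74* and *PTPRC* fell by 0.71 and 0.73 from early to late. The summed level of the 9 adipocyte markers on the array was 34.3 to 67.0 at the early, 16.4 to 62.4 at the middle and 47.6 to 78.4 at the late stage, and its part in the *FABP4* change was not tested.

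*FABP3*, the heart and muscle form, ended lower than it began. It was at −1.38 ± 0.33, −0.87 ± 0.49 and −2.09 ± 0.26, with changes of 0.51 (adjusted *P* = 0.00712), −1.22 (SE 0.16, adjusted *P* = 1.66e-06) and −0.71 (SE 0.16, adjusted *P* = 0.00320), the last of these lower in 9 of 9 cattle. Its probe was well above background on 9 early, 7 middle and 8 late arrays. After normexp the total change was −0.099 and was not called. The part of low signal in the *FABP3* changes was not tested. The 8 skeletal and heart muscle markers had a summed level of 1.78 to 2.78 at the early and 0.661 to 1.13 at the late stage, and 5 of them, *MYH7*, *MYH2*, *TNNT3*, *TNNC1* and *MYBPC1*, were well above background on no array. *ACTA1*, well above background on all early and late arrays, fell by 2.42 in the total period (adjusted *P* = 1.18e-08), in the direction of *FABP3*, while *CKM* changed by 0.45 (not called). *ACTA1* fell by 0.92 in the first period (adjusted *P* = 0.000184), where *FABP3* rose, and by 1.50 in the second, where *FABP3* fell. The part of muscle RNA in the *FABP3* change was not tested. *FABP5*, the form of the epidermis, lies 183 kb from *FABP4* by their probes on chromosome 14 and was called in no comparison, with changes of 0.10, 0.08 and 0.18.

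Other genes of the pathway, in 3 lists, gave mixed counts. Of 16 PPAR partners and coregulators on the array, 5 were higher and 3 lower in the first period, and 4 higher and 6 lower in the second. This is 50% and 62.5% of the list, beside 66.5% and 71.5% of all probes, and the median changes were 0.12 and 0.03, beside 0.32 and −0.27. Of the 6 well above background on all arrays, 0 were higher and 2 lower in the first period, and 1 higher and 0 lower in the second. Of all such probes 34.9% were higher and 26.9% lower in the first period, and 37.8% and 30.4% in the second. Among genes that passed the background flag throughout at least 1 stage, the coactivator *NCOA3* fell by 0.91 (adjusted *P* = 1.72e-05) and rose by 0.85 (adjusted *P* = 2.12e-05), and *NCOA1* was 0.65 higher in the total period (adjusted *P* = 0.0296). *PPARGC1A*, the coactivator of mitochondrial biogenesis, was well above background on no array.

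Of 23 further PPAR target genes, 10 were higher and 4 lower in the first period, with a median change of 0.19, and 5 higher and 9 lower in the second, with −0.41. This is 60.9% of the list in each period, below the share of all probes. Among the 10 of them with signal above background throughout, 2 rose and 2 fell in each period. *CIDEA*, which encodes a lipid droplet protein, fell by 2.58 (adjusted *P* = 1.25e-07) and rose by 2.73 (adjusted *P* = 1.91e-08), and *TXNIP*, a regulator of redox state and glucose uptake, rose by 1.06 and fell by 0.79. From early to late *PLIN5*, a lipid droplet coat protein, fell by 0.77 and *CREB3L3*, a membrane-bound transcription factor, rose by 0.76.

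Of 51 other genes of fatty acid oxidation and uptake, 21 were higher and 15 lower in the first period, and 14 higher and 21 lower in the second. The shares called, 70.6% and 68.6%, were near those of all probes, 66.5% and 71.5%. Among the 33 brighter genes 9 were higher and 13 lower in the first period, where 34.9% and 26.9% of such probes were called. In the second 12 were higher and 11 lower, beside 37.8% and 30.4%. The median change of these 33 was −0.15 and 0.29. *PEX7*, a receptor for import into peroxisomes, rose by 1.45 and fell by 2.03, *ACSF2*, a medium-chain acyl-CoA synthetase, fell by 1.70 in the first period, and *ABCD3*, a peroxisomal fatty acid transporter, rose by 2.13 in the second. *SLC22A5*, the carnitine transporter of the plasma membrane, rose by 0.91 (adjusted *P* = 2.84e-06), fell by 1.70 (adjusted *P* = 6.74e-10) and ended 0.79 lower (adjusted *P* = 7.01e-05). The mitochondrial carnitine carrier *SLC25A20* had changes of 0.11, 0.30 and 0.41 that were not called, and the thioesterase *ACOT13* was 0.55 higher in the total period.

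The RE label was checked against its markers. Of 19 stratified epithelium genes on the array 18, 17 and 18 passed the background flag on all arrays of the early, middle and late stages, and *KRT4* was the one found on no array. The summed level of the list was 5594 to 7626 at the early, 3440 to 7602 at the middle and 6903 to 8312 at the late stage. Of these 19 genes 3 were called higher and 11 lower in the first period, beside 45.3% and 21.3% of all probes. In the second period 7 were higher and 3 lower, beside 27% and 44.6%. *IVL* and *TGM1*, of the cornified envelope, fell by 1.99 and 1.54 and rose by 2.58 and 1.81, whereas *DSG3* and *S100A2* rose by 0.45 and 0.65 and fell by 0.43 and 0.41, *KRT10* was not called, and *KRT14* fell by 1.12 and stayed low. The red blood cell list stood at 106.6 to 200.1 at the middle stage against 40.1 to 69.8 and 46.3 to 92.6, and smooth muscle at 105.0 to 889.2 against 117.1 to 402.4 and 130.4 to 221.5. A label names liver and neutrophils as the source of RNA. Of the 10 hepatocyte genes, *ALB* and *FGA* were well above background on no array, while *AHSG*, *APOA1*, *APOA2* and *TTR* were so on all early and late arrays. The neutrophil marker *CSF3R* was well above background on 9 early, 4 middle and 9 late arrays. The summed hepatocyte, leukocyte, endothelium and fibroblast levels overlapped between all stages. The part of these lists in the changes of the members was not tested, and in a biopsy fewer cells of a type and less RNA per cell cannot be told apart.

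Values within batches were set beside the first period. On the first scan day alone, with 9 early and 7 middle arrays, 26 members were called, 11 higher and 15 lower, and all 44 had the same sign as above. Of the 15008 probes, 8593 were called there. These arrays are part of the reported fit, and only 1 early array shared a slide with the middle ones. The shared sign therefore does not separate slide from stage. When the slide was a random block instead, 16 and 15 members were called in the first and the next period, and 20 and 21 had an unadjusted *P* below 0.05. That fit called 6833 and 7512 of the 15008 probes. With the slide as a fixed block, where the median standard error of all probes rose from 0.19 to 0.67, *ECHS1* was the only member called (−2.80, adjusted *P* = 0.00286). Of the 15008 probes, 1238 were called with that block. Within slide 2, with 1 early and 7 middle arrays, 0 members were called in limma after adjustment and 12 had an unadjusted *P* below 0.05, *ECHS1* stood at −2.06, *ECH1* at −2.04, *CRAT* at −1.71 and *ACAD8* at −1.42, and 37 of 44 members had the same sign. Without the middle arrays of animals 8 and 9, which had the lowest shares of probes well above background, 28 members were called in the first period and 29 in the next. Calls over all 15008 probes were then 9640 and 10590.

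Some calls were lost with single animals left out or after normexp, which changes the background correction and also adds an offset of 50. The parts of correction and offset were not tested. With single animals left out, the first-period calls of *CPT1B* (animals 1, 2, 3, 4 or 7, 0.26 to 0.53), *EHHADH* (3, 4, 5 or 8, 0.55 to 0.87), *ETFB* (4, 7, 8 or 9, 0.37 to 0.59) and *HADH* (animal 2, −0.62 to −0.39) were lost, with adjusted *P* of up to 0.129. The second-period call of *ACSL6* was lost without animals 3, 4, 5, 7 or 8 (0.67 to 1.02). In the total period *ACSL1* (animals 1, 4, 5, 6, 7 or 9, 0.46 to 0.76), *CROT* (3 or 6, 0.56 to 0.75) and *ACAA2* (5 or 6, 0.34 to 0.44) lost theirs, and *PPARA* and *ECHS1* ranged from −0.80 to −0.52 and from −0.40 to −0.29. After normexp the first-period rises of *ACSL3* (0.15), *CPT1B* (0.04), *CROT* (0.14) and *FABP4* (0.38) and the total-period changes of *FABP3* (−0.099), *HADHA* (0.73), *HADHB* (0.59) and *ACAA2* (0.64) were not called. With the random slide block the smaller first-period falls of *CPT2* (−0.50), *ACADS* (−0.54), *ACADL* (−0.43), *ACAD11* (−0.58) and *HADH* (−0.30) were not called, nor were the second-period rises of *CPT2* (0.69), *ACADS* (0.41), *HADHA* (0.44), *HADH* (0.43), *ACAA2* (0.44), *ECI1* (0.33), *DECR1* (0.39) and *HSD17B4* (0.58). Those of *ECHS1*, *ECH1*, *ACAD8*, *CRAT*, *ETFDH*, *ETFA* and *HADHB* were called there in both periods. So were the first-period rises and second-period falls of *PPARD*, *CPT1A*, *ACADM*, *ECI2* and the dim *HSD17B10*.

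**Figure D4:**
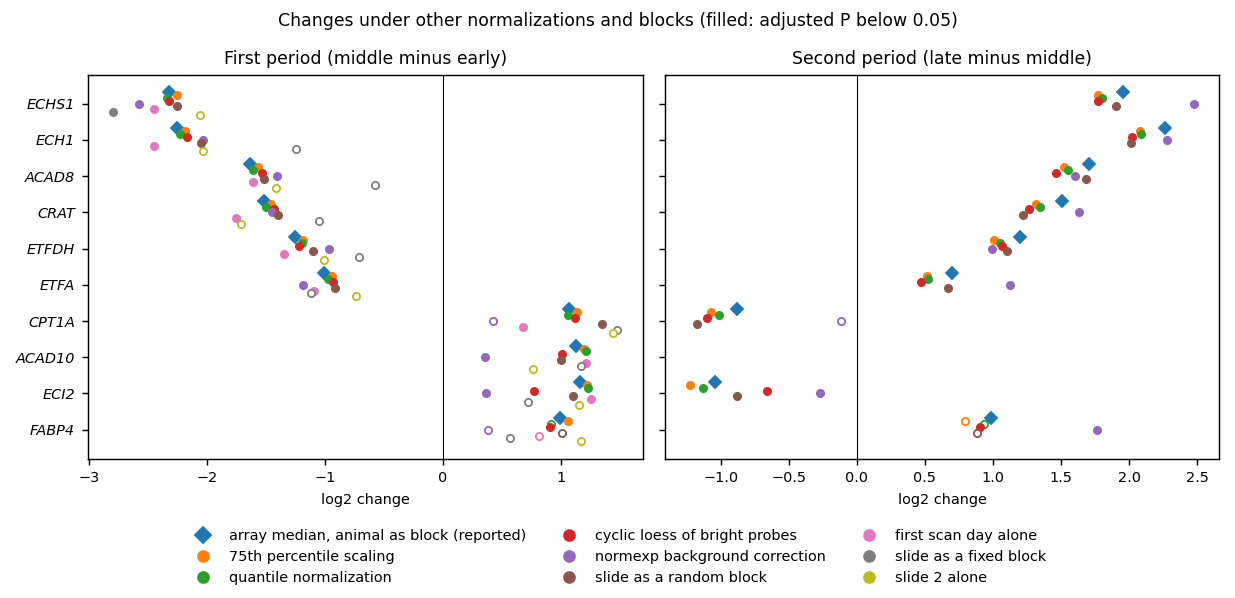
Log2 change of 10 members (rows) in the first and second periods under the reported fit (diamond) and 8 other normalizations or slide and scan day treatments (circles), filled where the adjusted *P* was below 0.05. The dips of *ECHS1*, *ECH1*, *ACAD8*, *CRAT*, *ETFDH* and *ETFA* keep their sign at every point, as do the rises of *CPT1A*, *ACAD10* and *ECI2*, which are smallest after normexp (0.43, 0.35 and 0.36). A setting is drawn only where that fit gives a value and the reported change was called.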

How the data were processed

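Cyanine 3-labeled RNA of 27 RE biopsies was read on custom bovine arrays. The intensity values deposited by the authors are linear processed signals after local background subtraction by Feature Extraction, version 11.0.1.1 per the file headers and 9.5 per the labels. Flags (well above background, saturated, outlier) in the files deposited by the authors are other values of 0 or 1. A log2 table deposited by the authors, the series matrix, has column medians of −3.09 to −2.61 and equals the log2 processed signal minus the 75th percentile of each array within 0.0207. It served as an alternative.

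Analyses used R 4.3.3, limma 3.58.1 and statmod 1.5.0. Outlier spots were set missing, spots of 1 probe averaged, log2 values centered on the array median as the methods describe, and 1 mean per stage with the animal as a block fitted to 15008 probes with empirical Bayes and Benjamini-Hochberg adjustment. No spot was saturated. Thresholds were an adjusted *P* of 0.05 and 2-fold. The animals pair the arrays, since each animal gave a biopsy at every stage: departures from stage means correlated by 0.158 on average within animals (24 of 27 pairs above 0) and −0.020 between animals. Where a gene of a list had several probes, the brightest stood for it. The 44 members and all gene lists were chosen with earlier results of these data known. All members are accounted for, values by array are given for those called at 2-fold in any comparison and above background throughout at least 2 stages, and of each other list the largest rise and fall among called genes that passed the background flag throughout at least 1 stage, together with *PPARGC1A*, *SLC25A20* and *SLC22A5*. Some genes are not reported here. All markers were named after their values were seen. Identifiers of 35 members matched RefSeq transcripts (ARS-UCD2.0). Alternatives were other scalings, normexp with an offset of 50, removal of dim probes, outlier spots kept, the series matrix, slide and scan day blocks, a fit of only 2 stages, the methods' *t*-test, no block and each animal left out. Leaving out the middle arrays of the second scan day, or the dimmest array, was chosen after seeing the data. Read depth has no meaning for arrays, and precision is limited by 9 arrays per stage and by signal over background. Proteins and promoters were not used here. The procedure was tested on simulated arrays without slide effects or a dimmer stage. That test does not bear on the slides or on the dimmer middle arrays of these data.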

Additional observations from a re-analysis of the deposited data

Results flagged for a closer look

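Of 132 sets of 9 levels (44 members at 3 stages), 5 held an array far from the rest by Dixon's criterion, and chance gives about 1 in 20. At the middle stage *PPARA* was highest in animal 5, at 0.95, with the next array at −0.88, *CPT2* was lowest in animal 4, at 3.94, with the next at 5.09, and *ACAD8* was lowest in animal 4, at 0.38, with the next at 1.94. *ACOX3* was lowest in animal 7, at −3.60, not well above background there, with the next at −1.84. At the late stage *RXRA* was highest in animal 9, at 4.10, with the next at 2.53. The middle array of animal 4 also had the lowest median signal, 8.05, and its part in the *CPT2* and *ACAD8* levels was not tested. Without that array 26 members were called in the first period and 28 in the next, beside 9611 and 10474 of the 15008 probes.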

How the results depend on the processing

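The 64 called changes of members kept their sign in 59 cases under every alternative that could be fitted, and 13 were also called in every such one. All 13 were second-period changes, that of the dim *HSD17B10* among them. Fixed slide and scan day terms and the subset within slide 2 could be fitted only for the first period. These 13 were therefore not put to them. The 64 include changes of *HSD17B10* and *ACSL4*, for which no fold change is given. The sign turned for *ACSL3* in the second period (0.37) and *ETFB* in the first (−0.10) after normexp, for *ACAD11* (0.67), *EHHADH* (−1.97) and *FABP3* (−0.38) in the first period under a fixed slide term, and for *EHHADH* within slide 2 (−0.49). The cause was not tested. Members called in the first period were 26, but 16 (9 higher, 7 lower) under a random slide block, 1 (0 higher, 1 lower, 1 at 2-fold) with it as a fixed block and 0 (0 higher, 0 lower, 0 at 2-fold) within slide 2, where 8 arrays remained. Higher calls were 9 after cyclic loess and 9 after normexp. In the second period 15 were called (9 higher) with the slide as a random block, lower calls were 16 with the series matrix and 16 with 75th percentile scaling, and 16 were called at 2-fold after normexp. In the total period 0 were called (0 higher, 0 lower, 0 at 2-fold; 4 with an unadjusted *P* below 0.05) under a random slide term and 3 (3 higher, 0 lower) after normexp, and higher calls were 3 with the series matrix, quantile normalization and 75th percentile scaling.

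When single animals were dropped, 24 to 28 members were called in the first period, 27 to 31 in the second and 6 to 10 in the total period, of which 3 to 7 were higher and 1 to 3 lower. Without the animal as a replicate block 26, 30 and 8 members were called, beside 9700, 10480 and 2753 of the 15008 probes. The calls of *EHHADH* in the first and *PPARA* in the total period were lost. The methods' *t*-test gave 21, 30 and 10 members after Benjamini-Hochberg adjustment, beside 8901, 9818 and 4526 of the 15008 probes. At the unadjusted threshold it gave 23, 31 and 18 members. A choice among probes of a member could not be varied, since each had 1. Dim members limit what can be said: 9 of the 44 were not well above background on every array.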
